A study of Homo sapiens with 15 samples.

Results

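The genes described here were the glucocorticoid receptor gene NR3C1 and 9 genes known as its targets or its feedback partners, FKBP5, TSC22D3, PER1, SGK1, MAOA, KLF9, BCL6, ZBTB16 and DUSP1. They were chosen by gene symbol, and all 10 were found among the 60664 gene entries of the deposited count table. RNA was measured in KPL4, a human breast adenocarcinoma line with amplified HER2, in 5 groups of 3 libraries that differed in estrogen receptor β (ERβ, encoded by ESR2) and in ligand. The LY500307 group held ERβ knockout cells carrying introduced ERβ, given the ERβ agonist LY500307 at 200 nM for 24 h, and the vehicle group held the same cells given DMSO for 24 h. Both had first been cultured for 72 h without phenol red and with serum reduced to 1%, treated with charcoal to strip its steroids, and stayed in that medium during treatment. The add-back group held knockout cells carrying introduced ERβ without this treatment, the knockout group held cells that had lost ERβ, and the control group held cells with their own ERβ. The lines were maintained in medium with 7% fetal bovine serum, 10 mM HEPES, 5 µg/mL insulin and hydrocortisone at 1 µg/mL, which is itself a glucocorticoid. The labels do not say whether hydrocortisone or insulin was in the charcoal-serum medium, nor whether the knockout line was 1 clone. Vehicle and add-back cells therefore differed in medium, serum and DMSO together, and these cannot be told apart.

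The glucocorticoid receptor is a nuclear receptor that waits in the cytoplasm with HSP90 and its co-chaperones. Cortisol, sold as hydrocortisone, binds it and sends it to the nucleus, where it raises or lowers transcription of target genes at response elements that often lie far from the gene's start. In epithelial cells it is known for raising stress, clock and ion-transport genes and for lowering inflammatory cytokines. FKBP5 is both a target and a brake, because its protein lowers the affinity of the receptor for hormone.

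Depth was 16843036 to 18100010 expected counts per library in LY500307 cells, 15046862 to 19390378 in vehicle, 14966501 to 17736189 in add-back, 12614074 to 15891449 in knockout and 13649584 to 15932714 in control cells. Introduced ERβ was seen as ESR2 mRNA, 32.8 CPM in add-back against 4.41 CPM in knockout cells (adjusted p = 4.54e-12), whereas knockout and control cells, at 4.41 and 5.76 CPM, did not pass the test (adjusted p = 0.0796). All 6 epithelial markers were detected, and their summed level was 9585 to 10020 CPM in LY500307, 9192 to 9817 in vehicle, 8390 to 8605 in add-back, 7624 to 7907 in knockout and 6322 to 6545 in control libraries. The amplified ERBB2 made most of it, at 6194, 6003, 5271, 5280 and 3521 CPM on average. In knockout against control cells 2 of the 6 were called higher and 4 lower (23.4% and 22.6% of all genes tested). In vehicle against add-back cells 2 were called higher and 1 lower (26.4% and 21.6%). The 14 markers of other cell types together reached 16.9 to 17.1, 14.95 to 15.94, 8.75 to 9.34, 8.76 to 9.74 and 7.08 to 10.1 CPM in the same order of groups, of which the endothelial VWF made 9.98, 8.74, 2.81, 2.97 and 3.70 CPM on average, the fibroblast COL1A1 made 3.15, 2.66, 4.002, 2.70 and 2.33 CPM, and COL1A2 was at 0 in all groups but LY500307, where it had 1 count. In vehicle against add-back cells VWF was called higher and COL1A1 lower (adjusted p = 2.07e-08 and 0.0107). CDH5, also endothelial, had 70 summed counts in vehicle and 20 in add-back cells. It passed the filter on low counts through the groups where it is high, so it is not counted here. Mitochondrial mRNAs took 3.66 to 4.2% of counts in LY500307, 3.91 to 4.25% in vehicle, 3.17 to 3.57% in add-back, 2.8 to 3.67% in knockout and 4.1 to 4.19% in control libraries. The part of these differences in the results was not tested. Levels are CPM, counts scaled to a common library total with TMM, with the SD over n = 3 libraries after the mean, and a gene was called at an edgeR adjusted p under 0.05.

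Vehicle against add-back set charcoal serum with DMSO against the maintenance culture. Of the 10 genes, 9 passed the filter on low counts. In vehicle cells 7 of them were lower and 2 higher than in add-back cells, where 21.6% of all genes tested were lower and 26.4% higher (48.1% called in either direction). The median log2 fold change of the 9 was -0.42, against 0.01 over all 19516 genes tested. PER1 and KLF9 fell the most, NR3C1 itself fell, and SGK1 and MAOA rose. ZBTB16 had no count in any vehicle library. In bulk RNA, fewer cells with a transcript and less transcript per cell cannot be told apart. The labels do not state that libraries of a group came from separate cultures, so the p-values speak only of library-to-library spread.

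**Figure D1:**
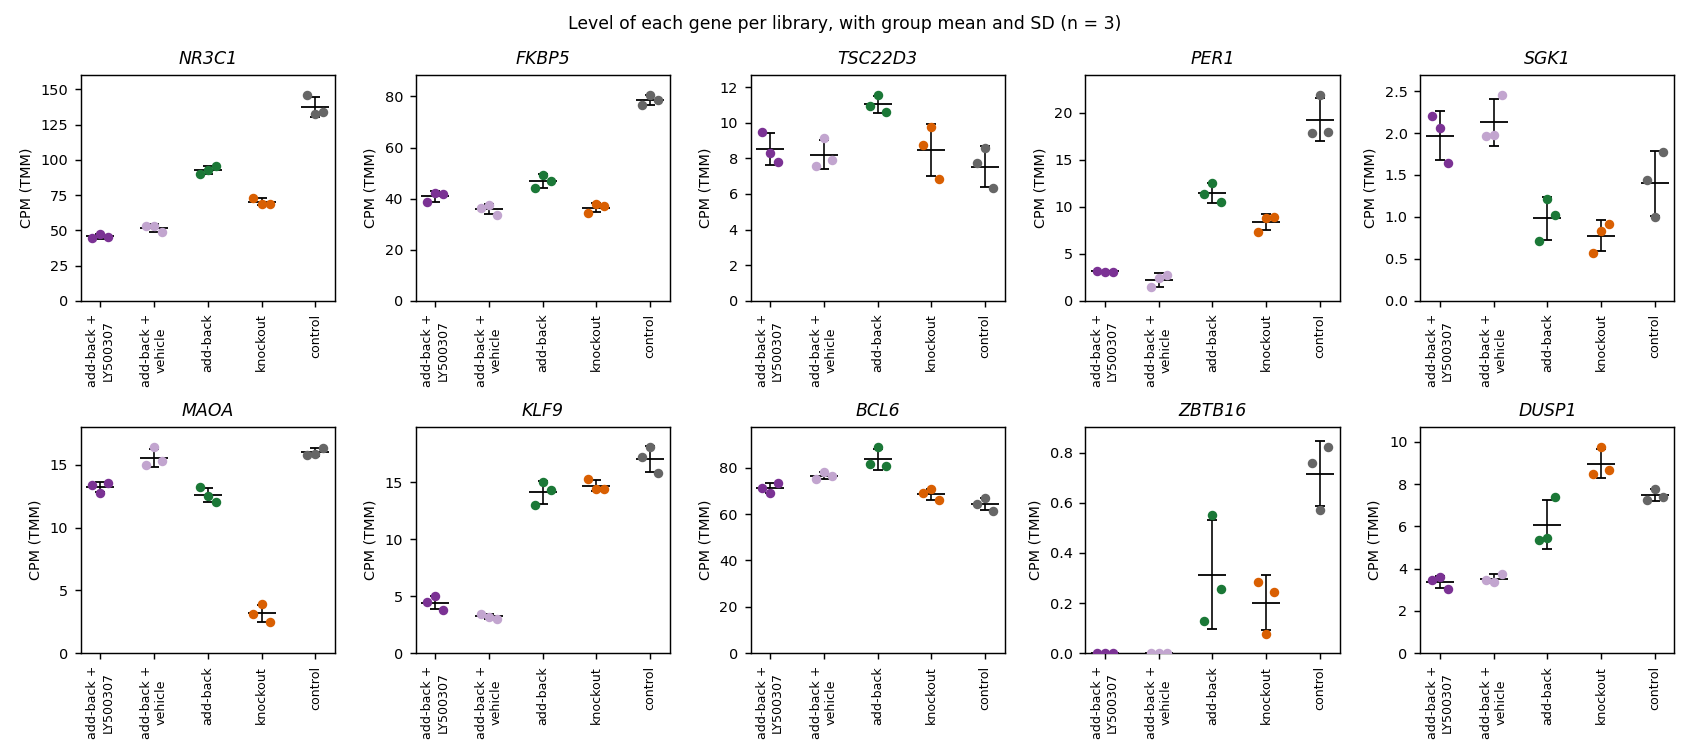
Level of each gene in CPM (vertical axes, from 0) in the 3 libraries of each group, with the group mean and SD. PER1, KLF9, DUSP1 and NR3C1 have their LY500307 and vehicle libraries below all add-back, knockout and control libraries, whereas SGK1 has its LY500307 libraries at 1.64 to 2.21 CPM and its vehicle libraries at 1.96 to 2.45 CPM, above all add-back and knockout libraries.

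NR3C1 (ENSG00000113580, GRCh38 chr5:143277931-143435512, minus strand) encodes the receptor. It was at 44.4, 47.8 and 45.1 CPM in the LY500307 libraries, 52.8, 53.4 and 48.6 CPM with vehicle, 90.3, 92.7 and 95.5 CPM in add-back, 73.0, 68.9 and 68.8 CPM in knockout and 146, 133 and 134 CPM in control cells. No library of any group overlapped another group, and the order from low to high was LY500307, vehicle, knockout, add-back and control. The receptor mRNA fell 1.80-fold in vehicle against add-back cells (51.6 ± 2.64 and 92.8 ± 2.62 CPM, log2 fold change -0.85 ± 0.05 SE, adjusted p = 5.47e-11). It fell 1.96-fold in knockout against control cells (70.2 ± 2.43 and 138 ± 7.26 CPM, -0.97 ± 0.05, adjusted p = 5.45e-12). With ERβ put back it rose 1.32-fold over knockout cells (0.40 ± 0.05, adjusted p = 6.26e-06) and stayed 1.48-fold below control cells (-0.57 ± 0.05, adjusted p = 1.04e-08).

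FKBP5 (ENSG00000096060, chr6:35573585-35728583, minus strand) encodes the HSP90 co-chaperone that restrains the receptor. Its level was 38.5, 42.1 and 42.0 CPM with LY500307, 36.5, 37.7 and 33.6 CPM with vehicle, 44.2, 49.4 and 47.0 CPM in add-back, 34.4, 37.8 and 37.2 CPM in knockout and 76.8, 80.5 and 78.4 CPM in control cells. Control cells stood highest by far, and the vehicle and knockout libraries overlapped each other at the low end. FKBP5 fell 2.15-fold in knockout against control cells (-1.11 ± 0.06, adjusted p = 7.52e-12) and 1.30-fold in vehicle against add-back cells (-0.38 ± 0.06, adjusted p = 1.61e-05). It was 1.29-fold higher in add-back than in knockout cells (0.36 ± 0.06, adjusted p = 0.000149) and 1.68-fold lower in add-back than in control cells (-0.74 ± 0.05, adjusted p = 1.95e-09).

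PER1 (ENSG00000179094, chr17:8140472-8156506, minus strand), a repressor in the circadian clock, was at 3.17, 3.08 and 3.11 CPM with LY500307 and 1.44, 2.40 and 2.79 CPM with vehicle. It was at 11.4, 12.5 and 10.5 CPM in add-back, 7.34, 8.83 and 8.94 CPM in knockout and 17.9, 21.9 and 17.9 CPM in control cells. The groups lay apart, and the highest vehicle library was far below the lowest add-back library. PER1 fell 5.17-fold in vehicle against add-back cells (2.21 ± 0.698 and 11.5 ± 1.03 CPM, -2.37 ± 0.16, adjusted p = 4.92e-10) and 2.29-fold in knockout against control cells (-1.20 ± 0.12, adjusted p = 1.81e-07). Add-back cells were 1.37-fold above knockout cells (0.46 ± 0.13, adjusted p = 0.0172) and 1.67-fold below control cells (-0.74 ± 0.12, adjusted p = 3.24e-05). The call over knockout cells was lost without add-back replicate 2 or knockout replicate 1, with adjusted p from 0.000682 to 0.0797 over 15 alternatives. With offsets for GC content and length, the log2 fold changes were -1.77 for knockout and -1.32 for add-back against control.

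KLF9 (ENSG00000119138, chr9:70384597-70414624, minus strand), a zinc-finger transcription factor, was at 4.47, 5.01 and 3.82 CPM with LY500307 and 3.46, 3.20 and 3.00 CPM with vehicle. It was at 13.01, 15.03 and 14.31 CPM in add-back, 15.3, 14.5 and 14.4 CPM in knockout and 17.3, 18.1 and 15.8 CPM in control cells. Add-back and knockout libraries overlapped, while both charcoal-serum groups lay far below. KLF9 fell 4.38-fold in vehicle against add-back cells (3.22 ± 0.233 and 14.1 ± 1.02 CPM, -2.13 ± 0.11, adjusted p = 8.85e-12). Knockout and control cells, at 14.7 ± 0.517 and 17.05 ± 1.16 CPM, did not pass the test (-0.21, 95% CI -0.39 to -0.03, adjusted p = 0.0551), although 4 of 15 alternatives passed (adjusted p from 0.0345 to 0.189). KLF9 was called 1.20-fold lower in add-back than in control cells (adjusted p = 0.0151), a call that 5 of 15 alternatives did not give: DESeq2, no filter on low counts, and leaving out add-back replicate 1, control replicate 1 or control replicate 2 (adjusted p over all 15 from 0.00884 to 0.106). For add-back against knockout the log2 difference was -0.06 (95% CI -0.24 to 0.12, adjusted p = 0.709).

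DUSP1 (ENSG00000120129, chr5:172768090-172771195, minus strand) encodes a phosphatase that switches off MAP kinases. It was at 3.45, 3.62 and 3.05 CPM with LY500307, 3.46, 3.36 and 3.75 CPM with vehicle, 5.37, 5.47 and 7.41 CPM in add-back, 8.48, 9.74 and 8.70 CPM in knockout and 7.27, 7.79 and 7.39 CPM in control cells. The LY500307 and vehicle libraries overlapped and lay below all others, and knockout libraries were the highest. DUSP1 fell 1.73-fold in vehicle against add-back cells (-0.79 ± 0.14, adjusted p = 8.93e-05) and was 1.48-fold lower in add-back than in knockout cells (-0.56 ± 0.12, adjusted p = 0.00242). Neither knockout (0.26, 95% CI 0.01 to 0.51, adjusted p = 0.0861) nor add-back cells (-0.30, -0.56 to -0.04, adjusted p = 0.0537) passed the test against control cells. Add-back against control passed in 4 of 15 alternatives, with limma-voom, with upper-quartile factors, with offsets for GC and length, and without add-back replicate 3 (adjusted p over all 15 from 0.00598 to 0.25).

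The bases before the RefSeq starts of PER1, KLF9 and DUSP1 are shown (GRCh38.p14, minus strand, 5′ to 3′). NR3C1, FKBP5, TSC22D3 and BCL6 were also lower in vehicle than in add-back cells, and their bases are not shown. Capitals mark the cAMP response element core TGACG, read on either strand (CGTCA on the other), and the E-box CACGTG, the site of clock factors. The PER1 stretch at chr17:8152436-8152654 was shortened to leave out bases inside a counted transcript, KLF9 is chr9:70414658-70414907 and DUSP1 is chr5:172771196-172771445.

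PER1: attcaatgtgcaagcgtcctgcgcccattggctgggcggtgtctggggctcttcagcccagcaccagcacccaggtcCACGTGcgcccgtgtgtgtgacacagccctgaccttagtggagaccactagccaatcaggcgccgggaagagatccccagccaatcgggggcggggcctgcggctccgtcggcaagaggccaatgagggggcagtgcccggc

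KLF9: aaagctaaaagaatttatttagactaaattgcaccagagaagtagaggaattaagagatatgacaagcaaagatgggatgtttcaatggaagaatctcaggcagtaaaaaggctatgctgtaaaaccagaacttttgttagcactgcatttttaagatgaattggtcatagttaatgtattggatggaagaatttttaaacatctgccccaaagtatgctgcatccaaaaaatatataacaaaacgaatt

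DUSP1: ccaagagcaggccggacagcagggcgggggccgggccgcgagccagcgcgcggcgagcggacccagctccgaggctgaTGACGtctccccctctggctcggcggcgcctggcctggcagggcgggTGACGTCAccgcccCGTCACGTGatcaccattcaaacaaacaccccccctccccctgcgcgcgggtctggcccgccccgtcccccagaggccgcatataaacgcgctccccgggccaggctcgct

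PER1 held 1 E-box and KLF9 neither motif. DUSP1 held 4 overlapping or separate TGACG cores and 1 E-box, which overlaps a CGTCA. Across the 250 bases before each of 35116 RefSeq starts, 21.2% held TGACG and 6.34% held CACGTG. Of the 22 such windows for 9 of the 10 genes, 5 held TGACG (NR3C1, TSC22D3 and DUSP1) and 3 held CACGTG (FKBP5, PER1 and DUSP1). The receptor's own palindrome, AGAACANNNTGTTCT, was in none of the 22 windows and in 0.00285% of all windows, its looser form GNACANNNTGTNC was in none and in 0.327%, and its core TGTTCT was in none and in 12.4%. A missing match says only that these letters are not in the window.

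MAOA (ENSG00000189221, chrX:43654907-43746824, plus strand), which encodes the monoamine oxidase that breaks down serotonin and noradrenaline, had the largest change of the 9 genes in knockout against control cells. It was at 13.4, 12.7 and 13.6 CPM with LY500307, 14.96, 16.39 and 15.33 CPM with vehicle, 13.2, 12.5 and 12.1 CPM in add-back, 3.14, 3.88 and 2.51 CPM in knockout and 15.8, 15.9 and 16.4 CPM in control cells. Knockout libraries stood far below the other 4 groups. MAOA fell 5.10-fold in knockout against control cells (3.18 ± 0.686 and 15.99 ± 0.325 CPM, -2.35 ± 0.11, adjusted p = 2.94e-12) and rose 4.01-fold in add-back over knockout cells (2.00 ± 0.11, adjusted p = 2.1e-10), to 1.27-fold below control cells (-0.34 ± 0.08, adjusted p = 0.00249). In vehicle against add-back cells it rose 1.24-fold (0.31 ± 0.08, adjusted p = 0.00513), a call lost with offsets for GC content and length (log2 fold change 0.12; adjusted p from 0.00325 to 0.273 over 15 alternatives).

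SGK1 (ENSG00000118515, chr6:134169246-134318112, minus strand) encodes a kinase named for its induction by serum and glucocorticoids. Its counts were low, at 39, 34 and 28 with LY500307, 30, 37 and 36 with vehicle, 11, 22 and 16 in add-back, 8, 11 and 15 in knockout and 19, 14 and 28 in control libraries. Unlike PER1, KLF9 and DUSP1 it was higher with charcoal serum, and the control libraries overlapped those of both LY500307 and add-back cells. SGK1 rose 2.13-fold in vehicle against add-back cells (2.13 ± 0.28 and 0.983 ± 0.254 CPM, 1.09 ± 0.26, adjusted p = 0.00162). It was 1.80-fold lower in knockout than in control cells (0.775 ± 0.182 and 1.40 ± 0.386 CPM, -0.85 ± 0.30, adjusted p = 0.0252). That call was lost with DESeq2 and without control replicate 1, control replicate 3 or knockout replicate 1 (adjusted p from 0.0101 to 0.149 over 15 alternatives). For add-back against knockout (0.34, 95% CI -0.31 to 0.99) and against control (-0.51, -1.09 to 0.08) the intervals were wide at these counts.

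TSC22D3 (ENSG00000157514, chrX:107713221-107777342, minus strand) encodes GILZ, an anti-inflammatory leucine-zipper protein. It was at 8.53 ± 0.878 CPM with LY500307, 8.2 ± 0.819 CPM with vehicle, 11.03 ± 0.478 CPM in add-back, 8.46 ± 1.47 CPM in knockout and 7.54 ± 1.14 CPM in control cells. Add-back libraries, at 10.6 to 11.6 CPM, lay above all others, and the other 4 groups overlapped. TSC22D3 fell 1.34-fold in vehicle against add-back cells (-0.42 ± 0.13, adjusted p = 0.00919) and was 1.47-fold higher in add-back than in control cells (0.56 ± 0.13, adjusted p = 0.00162). Its rise in add-back over knockout cells (0.40 ± 0.13, adjusted p = 0.0343) was lost with DESeq2 and without add-back replicate 1 or 2 or knockout replicate 3 (adjusted p from 0.00433 to 0.166 over 15 alternatives). Knockout and control cells differed by 0.16 (95% CI -0.13 to 0.45, adjusted p = 0.372).

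BCL6 (ENSG00000113916, chr3:187721377-187745727, minus strand), a zinc-finger repressor of transcription, was at 71.3 ± 2.11 CPM with LY500307, 76.6 ± 1.35 CPM with vehicle, 83.6 ± 4.47 CPM in add-back, 68.5 ± 2.41 CPM in knockout and 64.2 ± 2.66 CPM in control cells. Add-back libraries lay above those of the other groups, while knockout libraries overlapped both LY500307 and control libraries. BCL6 rose in add-back over knockout cells (0.29 ± 0.05, adjusted p = 0.000147) and over control cells (0.38 ± 0.05, adjusted p = 1.66e-06). It fell 1.09-fold in vehicle against add-back cells (-0.13 ± 0.05, adjusted p = 0.0264), a call lost without add-back replicate 2 (adjusted p from 0.000537 to 0.0774 over 15 alternatives).

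ZBTB16 (ENSG00000109906, chr11:114059593-114250676, plus strand) encodes the zinc-finger protein PLZF. It had 0 counts in all 6 LY500307 and vehicle libraries, 2, 10 and 4 counts in add-back, 4, 1 and 4 in knockout and 10, 8 and 13 in control libraries, and it did not pass the filter on low counts. Vehicle cells were at least 5.28-fold lower than add-back cells, with the vehicle group set at 3 counts over its 3 libraries. Add-back replicate 2 held 10 of the 16 add-back counts, and without it the bound was 3.13-fold. Without the filter, vehicle against add-back had an edgeR adjusted p of 0.000103, and knockout against control 0.0151. The add-back and knockout libraries overlapped (16 against 9 counts in all, adjusted p = 0.684 without the filter). Add-back against control, 16 against 31 counts, had an adjusted p of 0.137 without it.

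**Figure D2:**
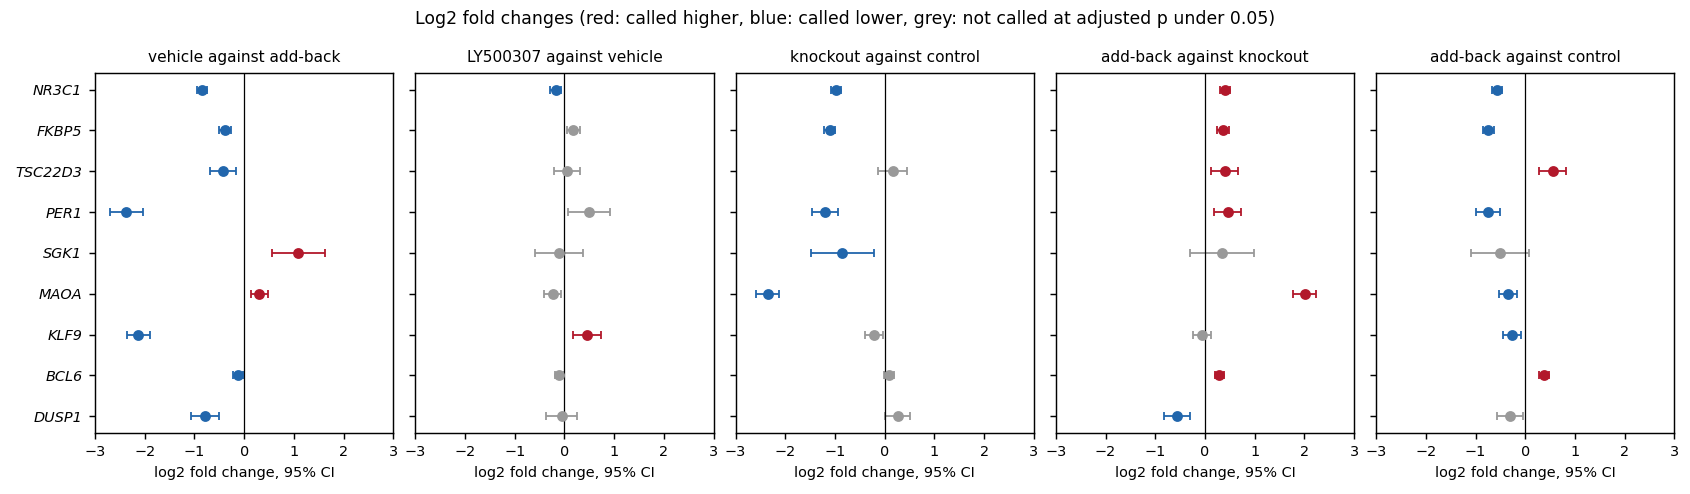
Log2 fold change with its 95% confidence interval (horizontal axes) for the 9 genes tested in each of the 5 comparisons, with red for called higher, blue for called lower and grey for not called. PER1 at -2.37 and KLF9 at -2.13 stand out in vehicle against add-back, and MAOA at -2.35 and 2.00 in knockout against control and add-back against knockout.

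Per kilobase of transcript, the scale on which genes can be compared, BCL6 was the highest in LY500307, vehicle, add-back and knockout cells (20.8, 22.4, 24.4 and 20.02 CPM per kb), whereas in control cells NR3C1 was at 23.2, FKBP5 at 19.0 and BCL6 at 18.8 CPM per kb. In vehicle cells NR3C1 and FKBP5, at 8.71 and 8.68 CPM per kb, were less than their spread apart. The lowest of the detected genes in vehicle cells were PER1 at 0.526 ± 0.166, KLF9 at 0.622 ± 0.0449 and SGK1 at 0.834 ± 0.11 CPM per kb, and PER1 and KLF9 were less than their spread apart. In control cells PER1 was next after those 3 genes, at 4.57 CPM per kb.

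The knockout comparison addressed ERβ loss. Of the 9 genes tested, 8 had at least 10 counts in every library of both groups. Of these 8, 4 were lower in knockout cells (MAOA, PER1, FKBP5 and NR3C1) and 0 higher. Among all genes tested, 22.6% were lower and 23.4% higher (46% called in either direction). SGK1 was also called lower but is not in this count. The median log2 fold change of the 9 was -0.85, or -0.59 without SGK1, which had under 10 counts in 1 knockout library, against -0.00 over all genes. KLF9, DUSP1, BCL6 and TSC22D3 did not pass. Of all calls 50.8% were higher, or 40% with offsets for GC content and length.

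Add-back against knockout asked what returning ERβ did. MAOA, PER1, NR3C1, TSC22D3, FKBP5 and BCL6 rose, 6 of 9, and DUSP1 fell, where 10.4% of all genes tested were higher and 9.19% lower (19.6% called). The median of the 9 was 0.36, against -0.01 over all genes. Of all calls 53.1% were higher, with 42% under upper-quartile scaling and 64.7% once GC content and length were offset. Add-back against control, which shares its libraries with both comparisons, had 2 of 9 higher (TSC22D3 and BCL6) and 5 lower (FKBP5, PER1, NR3C1, MAOA and KLF9), where 23.2% of all genes tested were higher and 22.7% lower (45.8% called).

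LY500307 against vehicle asked what the ERβ agonist did. Of the 9 genes, 1 was called higher and 1 lower, where 4.77% of all genes tested were higher and 2.35% lower (7.12% called). KLF9 was 1.37-fold higher with LY500307, at 4.43 ± 0.6 against 3.22 ± 0.233 CPM (0.46 ± 0.13, adjusted p = 0.042). NR3C1 was 1.13-fold lower, at 45.8 ± 1.79 against 51.6 ± 2.64 CPM (-0.18 ± 0.05, adjusted p = 0.047). Both calls were close to the threshold. KLF9 passed in 6 of 15 alternatives (adjusted p from 0.0213 to 0.219) and was lost without LY500307 replicate 1 or 2 or any 1 vehicle library. NR3C1 passed in 4 of 15 (adjusted p from 0.0273 to 0.493) and was lost without any 1 LY500307 library or without vehicle replicate 1 or 2.

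FKBP5, at 40.9 ± 2.06 with LY500307 and 35.9 ± 2.11 CPM with vehicle, had a log2 difference of 0.18 (95% CI 0.06 to 0.30, adjusted p = 0.0638) and passed in 5 of 15 alternatives (adjusted p from 0.011 to 0.188). PER1, at 3.12 ± 0.0447 with LY500307 and 2.21 ± 0.698 CPM with vehicle, had 0.49 (95% CI 0.08 to 0.91, adjusted p = 0.151). MAOA had -0.24 (-0.41 to -0.06, adjusted p = 0.0957) and BCL6 -0.10 (-0.20 to -0.01, adjusted p = 0.191). FKBP5 and PER1 were on the higher side with LY500307 and MAOA and BCL6 on the lower, and none of these 4 genes was called. SGK1, TSC22D3 and DUSP1 had intervals from -0.59 to 0.38, -0.22 to 0.32 and -0.37 to 0.26, so changes within those bounds are not excluded.

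A wider list of 50 further genes known to be raised by glucocorticoids, of which 40 passed the filter, went both ways in vehicle against add-back cells. Of the 39 with at least 10 counts in every library of both groups, 13 were higher and 15 lower, where 26.4% of all genes tested were higher and 21.6% lower. TNS4, a focal-adhesion protein, fell 7.16-fold, at 1.13 against 8.14 CPM (adjusted p = 2.56e-11). The metallothioneins MT2A and MT1X, metal-binding proteins whose near-identical copies make their counts uncertain, fell 3.47-fold and 1.96-fold (adjusted p = 3.28e-08 and 0.000458). SCNN1A, a subunit of the epithelial sodium channel, fell 1.75-fold, at 132.5 against 232.1 CPM (adjusted p = 1.09e-11). AQP3, a water and glycerol channel, fell by 0.67 on the log2 scale (adjusted p = 9.6e-06). Against these, LCN2, a secreted iron-scavenging lipocalin, rose 4.45-fold, at 426 against 95.8 CPM (adjusted p = 4.81e-17). NDRG1, a stress-responsive gene, rose 2.79-fold, TNFAIP3, a brake on NF-κB, rose 2.62-fold, and ANXA1, annexin A1, rose 2.49-fold, at 444 against 178.5 CPM (adjusted p = 4.42e-13, 1.71e-07 and 2.54e-14).

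Of 17 genes known to be lowered by glucocorticoids, 6 passed the filter and 5 had at least 10 counts in every vehicle and add-back library. Of these 5, 3 were higher in vehicle than in add-back cells and 0 lower, and PTGS2 and IL11 were not called. Among all genes tested, 26.4% were higher and 21.6% lower. CXCL8, a neutrophil-attracting chemokine, rose 5.06-fold (10.8 against 2.14 CPM, adjusted p = 3.27e-10). LIF, a cytokine, rose 2.49-fold (13.03 against 5.24 CPM, adjusted p = 3.58e-08), and ICAM1, an adhesion molecule, rose 1.96-fold (17.5 against 8.91 CPM, adjusted p = 8.68e-09). CCL20, a chemokine at 0.922 against 0.101 CPM, passed the filter through the groups where it is high, so it is not counted here.

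**Figure D3:**
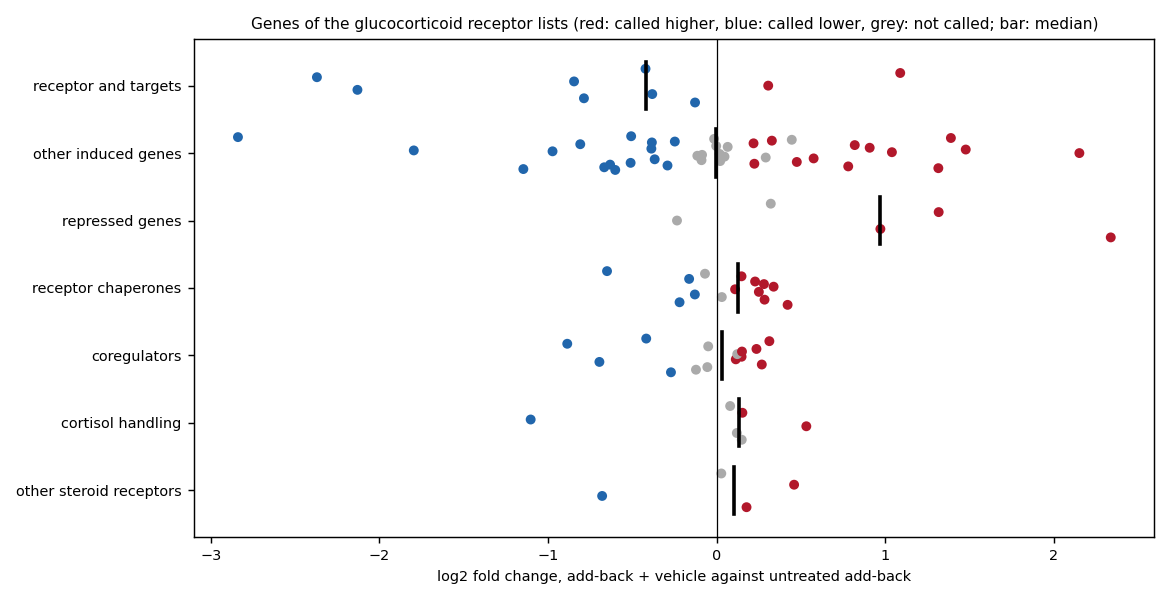
Log2 fold change in vehicle against add-back cells (horizontal axis) for each gene of the glucocorticoid receptor lists with at least 10 counts in every library of both groups, 1 line a list, with red for called higher, blue for called lower, grey for not called and a bar at the median. The receptor and its targets, 9 genes tested without ZBTB16, have their median at -0.42. The wider induced list spreads on both sides of 0, and the repressed list has CXCL8, LIF and ICAM1 on the higher side.

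Of 14 chaperones and co-chaperones of the receptor, 8 were higher and 4 lower in vehicle than in add-back cells, where 26.4% of all genes tested were higher and 21.6% lower. STUB1, a ubiquitin ligase of chaperone clients, fell by 0.65 on the log2 scale and FKBP4, the co-chaperone that opposes FKBP5, fell by 0.13. BAG1 (0.42), HSPA4 (0.34), DNAJA1 (0.28) and HSPA8 (0.28) rose, all with adjusted p under the threshold, and copies of heat-shock genes may share reads. Of 14 coregulators, 6 were higher and 4 lower, against the same shares of all genes. SMARCA4, a chromatin remodeller, fell 1.34-fold (adjusted p = 1.6e-07), while NRIP1 rose 1.24-fold (adjusted p = 2.9e-06). Among 9 genes of cortisol metabolism, 6 were tested. HSD11B2, which inactivates cortisol, fell 2.15-fold (2.28 against 4.97 CPM, adjusted p = 8.39e-06). H6PD, which feeds HSD11B1, the enzyme that regenerates cortisol, rose 1.45-fold (19.2 against 13.3 CPM, adjusted p = 2.89e-05). HSD11B1 itself was all but absent, with 0, 0, 1, 2 and 1 summed counts in LY500307, vehicle, add-back, knockout and control cells.

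In knockout against control cells, 37 genes of the wider induced list had at least 10 counts in every library of both groups, and 10 were higher and 16 lower (23.4% and 22.6% of all genes tested). ANXA1 fell 4.34-fold, at 91.7 against 398 CPM (adjusted p = 7.91e-17), BIRC3, an inhibitor of apoptosis, fell 2.60-fold (adjusted p = 1.67e-10), and LCN2 rose 3.40-fold (adjusted p = 2.28e-15). In add-back against knockout cells 12 of 40 were higher and 7 lower (10.4% and 9.19% of all genes tested), and ANXA1 rose 1.95-fold (adjusted p = 4.43e-11) while LCN2 fell 1.75-fold (adjusted p = 4.09e-10). Of 5 repressed-list genes with at least 10 counts in every library of both groups, 1 was higher and 1 lower in add-back than in knockout cells. In knockout against control cells 1 of 5 was higher and 2 lower. LIF was 1.76-fold lower in add-back than in knockout cells (5.24 against 9.10 CPM, adjusted p = 0.000149). PTGS2, the inducible cyclooxygenase from the same list, was at 17.98 CPM in add-back, 6.96 CPM in knockout and 19.7 CPM in control cells (adjusted p = 6.4e-06 for add-back against knockout and 3.98e-07 for knockout against control). Both comparisons use the same knockout libraries. NCOR1, a corepressor, fell 1.64-fold (adjusted p = 6.54e-13) in knockout against control cells and rose 1.21-fold (adjusted p = 1.81e-06) in add-back over knockout cells. H6PD and SRD5A3, a 5α-reductase family member, were 1.98-fold and 1.90-fold higher in knockout than in control cells (adjusted p = 2.11e-07 and 4.52e-11).

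In LY500307 against vehicle cells 5 of 38 wider induced genes with at least 10 counts in every library of both groups were higher and 0 lower (4.77% and 2.35% of all genes tested). The 1389 genes called in this comparison fell to 248 with offsets for GC and length and to 299 without vehicle replicate 2. BIRC3 was at 39.5 against 27.0 CPM (1.46-fold, adjusted p = 0.000302), SCNN1A at 164 against 132.5 CPM (1.24-fold, adjusted p = 0.000371) and FOXO3, a forkhead transcription factor, at 178 against 154 CPM (1.15-fold, adjusted p = 0.00263). From the repressed list CXCL8 rose 1.41-fold (15.2 against 10.8 CPM, adjusted p = 0.0134). SMARCA4, lower in vehicle than in add-back cells, rose by 0.20 on the log2 scale with LY500307 (adjusted p = 0.00889), and the same vehicle libraries enter both comparisons.

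NR3C2, the mineralocorticoid receptor, which also binds cortisol, was at 5.83 CPM with LY500307, 6.96 CPM with vehicle, 6.87 CPM in add-back, 10.1 CPM in knockout and 5.47 CPM in control cells. NR3C2 rose 1.84-fold in knockout against control cells (adjusted p = 4.11e-06), where NR3C1 fell. It differed by 0.03 on the log2 scale in vehicle against add-back cells (adjusted p = 0.861), where NR3C1 also fell. ESR1, the gene of estrogen receptor α, fell 1.60-fold in vehicle against add-back cells (adjusted p = 1.29e-06) and rose 1.75-fold in knockout against control cells (adjusted p = 2.96e-07). With ERβ put back ESR1 was at 17.06 CPM, against 17.41 CPM in knockout cells. PGR, the progesterone receptor, did not pass the filter, at 0.217 CPM or less in every group.

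Transcript counts were assigned by RSEM and are described without a test, for the 5 genes with at least 50 counts in every library. NR3C1-203 held 56.8 to 76.5% of NR3C1 counts across the 15 libraries and NR3C1-206 held 13.8 to 30.5%. NR3C1-205, which ends in the alternative last exon of the receptor's β form, took 0 to 1.29% with LY500307, 0 to 0.245% with vehicle, 0% in add-back, 0 to 12.1% in knockout, where 1 library held all of it, and 0.812 to 10.7% in control cells. Its share thus differed as much between libraries of knockout or control cells as between groups.

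**Figure D4:**
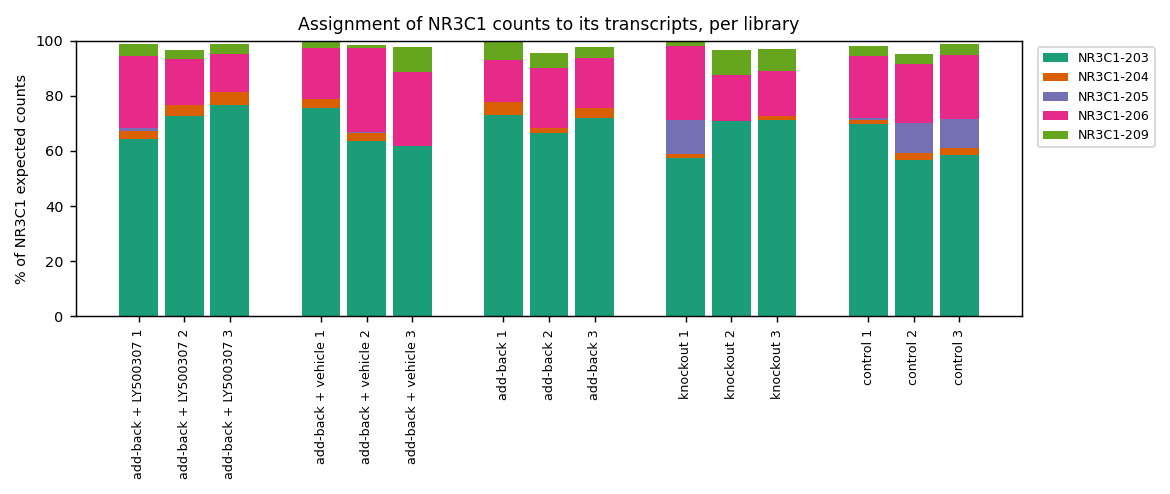
Percent of NR3C1 expected counts (vertical axis, 0 to 100) assigned to each transcript in each of the 15 libraries. NR3C1-203 is the largest share in every library, and NR3C1-205 reaches 12.1% in 1 knockout library and is at 0 in all 3 add-back libraries.

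FKBP5-201 held 77.6 to 91% of FKBP5 counts in every library. FKBP5-204 held 7.03 ± 1.0% with LY500307, 7.17 ± 0.127% with vehicle, 10.2 ± 1.2% in add-back, 14.1 ± 1.59% in knockout and 11.3 ± 0.503% in control cells. A single BCL6 transcript held 79.8 to 88.8% of BCL6 counts, and DUSP1 had 1 transcript. The TSC22D3 transcripts that start at the far promoter held 19.4 to 29.1% with LY500307, 14.6 to 41.4% with vehicle, 21.1 to 34.5% in add-back, 25.3 to 45.2% in knockout and 15.8 to 27.3% in control cells, so all groups overlapped. The genes that overlap the 10 in the genome averaged at most 0.643 CPM each, the highest being an antisense gene opposite BCL6.

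Across the 15 libraries, log2 CPM of PER1 and KLF9 had a Pearson r of 0.94, NR3C1 and PER1 0.92, KLF9 and DUSP1 0.92 and NR3C1 and FKBP5 0.85. NR3C1 and MAOA had 0.09 and SGK1 and KLF9 -0.76. These describe 5 groups of 3 libraries that share medium and genotype within a group, and no p is given. Among 14192 genes searched, those most like NR3C1 were EPDR1, ANKRD27, CTSC, HNRNPDL and PDE3B, with r of 0.98 to 0.99. CTSC, the protease cathepsin C, was at 259 ± 3.37 CPM with LY500307, 258 ± 6.77 with vehicle, 381 ± 7.69 in add-back, 337 ± 7.97 in knockout and 556 ± 24.1 in control cells. Those most like FKBP5 were NPTX1, PNKD, CHD7, RNASEH1 and NAA16, with r of 0.97 to 0.98. NPTX1, a secreted pentraxin of synapses, was at 2.27 ± 0.302 CPM with LY500307, 1.91 ± 0.183 with vehicle, 3.91 ± 0.544 in add-back, 2.25 ± 0.462 in knockout and 11.9 ± 0.551 in control cells.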

How the data were processed

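Ribosomal RNA was removed from total RNA before sequencing of 15 KPL4 libraries, 3 per group. The values the authors deposited are RSEM expected counts for genes and for transcripts, without normalisation. The submitters' processing notes name FastQC, Trim Galore, GSNAP, RSEM and GRCh38. Versions, the annotation release and the use of strand in counting were not given in the sources used here, so reads of a gene and an antisense partner may be mixed. Gene values were rounded to whole numbers, and edgeR 4.0.16 (R 4.3.3) kept 19516 genes by filterByExpr on the groups. It scaled libraries by TMM, fitted 1 mean per group over the 15 libraries together, and gave two-sided quasi-likelihood tests with Benjamini-Hochberg adjustment over all genes tested. The biological coefficient of variation was 4.99%. Positions and lengths came from GENCODE 29 (GRCh38), and windows before gene starts from RefSeq (GRCh38.p14). ZBTB16 had no window there. The test was also run on counts simulated with its own fitted spread and with few changed genes. That run does not cover the share of genes called here, up to 48.1%.

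The genes and lists were chosen with earlier results of these data known. From each list the text names, above a mean log2 CPM of 1, up to 6 falls and 4 rises in vehicle against add-back and up to 3 genes with the smallest p in other comparisons, not all of which are repeated here. Some genes the rule names are not reported here. Likeness was taken as the 5 highest Pearson correlations of log2 CPM. Fold bounds against 0 counts used 3 counts over the group, which covers counting error only. Libraries with the same replicate number did not deviate together: correlations of their residuals ran from -0.0952 to 0.0603, and 0 of 30 pairs exceeded 0.1. Pairs of replicates differed by 2.15 to 5.43 times counting error (chi-square per degree of freedom). Alternatives were DESeq2 1.42.0, limma-voom (limma 3.58.1), other scalings and filters, offsets for GC content and length, a fit on only the 6 libraries compared, the replicate block and leaving out each library. Of 15 alternatives per gene and comparison, 6 left out 1 library.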

Additional observations from a re-analysis of the deposited data

How the results depend on the processing

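Of 674 values for the 9 tested genes under alternatives, 624 kept their side of the threshold, 37 lost a call and 13 gained one. Of the values with a call in either fit, 0 turned round. Some values without a call changed sign, such as DUSP1 in LY500307 against vehicle (log2 fold change -0.0998 to 0.0244 over the alternatives). Calls moved most in LY500307 against vehicle. There 1389 genes were called, but 248 with offsets for GC content and length, and 299 to 1844 when 1 library was left out (403 and 299 without vehicle replicates 1 and 2, 586 and 487 without LY500307 replicates 1 and 2). Of the 9 genes, 2 were called, but 1 with DESeq2, 1 with those offsets, 0 with limma-voom, 0 with the 6 libraries alone and 0 to 1 when a library was left out. The cause was not tested. Leaving out 1 library gave 8018 to 8934 genes called for vehicle against add-back, 7946 to 8491 for knockout against control, 2918 to 3596 for add-back against knockout and 7826 to 8401 for add-back against control. In the same order 9 to 10, 4 to 6, 5 to 7 and 6 to 8 of the 10 genes were called. With the replicate block 1216 genes were called for LY500307 against vehicle and 9123 for vehicle against add-back. Of the 9 genes, FKBP5 then passed for LY500307 (adjusted p = 0.0403) and NR3C1 did not (adjusted p = 0.0612). The block was not used for conclusions because the replicate numbers are not stated to pair the libraries. Lowering the minimum for transcript shares to 10 counts gave 8 genes in place of 5.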
